A study of Mus musculus with 24 samples.

Results

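The genes followed here encode the small GTPase Rab5, its early endosomal partners and the retromer coat: Rab5a, Rab5b, Rab5c, Rab7, Eea1, Rabep1, Vps35, Vps26a, Vps26b and Snx27. They were chosen by name for their place in this pathway, with earlier results of these data known. They are 10 of the 55385 genes in the count table. Expression was measured by RNA-Seq in the hippocampus (HIP) and the entorhinal cortex (EC) of 12 male mice aged 5 to 6 months, 6 Ts65Dn mice and 6 wild-type (wt) littermates. Each mouse gave both regions, so the 24 libraries form groups of 6: wt HIP, Ts65Dn HIP, wt EC and Ts65Dn EC. All mice shared a mixed B6C3B background. Ts65Dn mice model Down syndrome through a freely segregating minichromosome that joins the end of mouse chromosome 16 (Mmu16), from Mir155 to Zbtb21, to the centromeric part of Mmu17, from Pisd-ps2 to Pde10a. The model therefore also carries an additional copy of those Mmu17 genes. The wt littermates are disomic for both segments, and the labels name no treatment.

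Early endosomes receive cargo taken up from the plasma membrane. Rab5, in its GTP-bound form, recruits the tether EEA1 and the effector rabaptin-5 (Rabep1), so that vesicles dock and fuse. Rab7 replaces Rab5 as the endosome matures and helps bring retromer to the membrane, where VPS35 and a VPS26 subunit select receptors for return to the Golgi, and SNX27 takes cargo back to the cell surface. Neurons use these routes to recycle receptors and to sort the amyloid precursor protein App, and enlarged Rab5-positive endosomes are a recognised feature of Down syndrome neurons.

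The count of a gene with close relatives depends on bases that tell them apart, so matched coding stretches of the 3 Rab5 genes and of both Vps26 genes are shown first. Capitals mark the positions at which the printed relatives do not all carry the same base, and positions are in GRCm38. The stretches of 60 bases lie at chr17:53500376-53500435 (plus strand) for Rab5a, chr10:128681420-128681479 (minus strand) for Rab5b, chr11:100716792-100716851 (minus strand) for Rab5c, chr10:62468292-62468351 (minus strand) for Vps26a and chr9:27015159-27015218 (minus strand) for Vps26b.
Rab5a: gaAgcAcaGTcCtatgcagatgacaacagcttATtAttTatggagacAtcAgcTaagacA
Rab5b: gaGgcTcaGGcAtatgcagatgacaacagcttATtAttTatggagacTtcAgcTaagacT
Rab5c: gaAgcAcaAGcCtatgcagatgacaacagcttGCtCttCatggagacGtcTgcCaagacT
Vps26a: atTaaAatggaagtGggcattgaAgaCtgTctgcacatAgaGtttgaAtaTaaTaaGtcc
Vps26b: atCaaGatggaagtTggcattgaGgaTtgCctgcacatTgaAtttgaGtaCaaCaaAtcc

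The Rab5 genes share 47 of these 60 bases and the Vps26 genes 48 of 60. Across their annotated transcripts, no pair of the 10 genes shared a run as long as a read of 50 bases, and the longest run common to any of the 45 pairs was 35 bases, between Rab5a and Rab5b. Some reads could nevertheless be split with other genes. Of the runs of 50 bases in Rab7 transcripts, 12.7% also occurred in another gene on either strand, mostly in the pseudogene Rab7-ps1, which had 170 to 338 counts per library. For Rab5b the share was 9.8%, in the pseudogene Gm13991 with 165 to 300 counts, and the shares were 4.03% for Rab5a and 2.17% for Vps35. Exons of Rab5a, Rab7, Rabep1 and Vps35 also overlap a gene on the opposite strand, Pp2d1, Gm5577, Nup88 and Orc6 in turn, and the strand setting used for counting is not given in the sources used here. Levels of these genes carry that uncertainty.

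None of the 10 genes lies in a triplicated segment. Rab5a is on chromosome 17, at 53479234 to 53507680, far beyond the Mmu17 segment genes used here, which ended at 8986648. The other genes are on chromosomes 3 (Snx27), 6 (Rab7), 8 (Vps35), 9 (Vps26b), 10 (Eea1, Rab5b and Vps26a) and 11 (Rab5c and Rabep1).

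Total counts ranged from 23128589 to 40476492 per library, and the 10 genes had between 1200 and 10814 counts each in every library. Dosage of the minichromosome was read from 77 Mmu16 genes and 35 Mmu17 genes, each divided by its wt mean in the same region. In HIP the median fold of the Mmu16 genes was 1.45 to 1.53 in 5 Ts65Dn libraries, and that of the Mmu17 genes was 1.43 to 1.51. In EC these ranges were 1.46 to 1.54 and 1.45 to 1.52. The mouse labelled Ts65Dn replicate 3 differed, with 1.01 for both segments in HIP and 1.002 and 0.964 in EC, inside the wt range of 0.949 to 1.04. Both of its libraries went against their label, and the genotype values of the 10 genes below are given with them, as labelled, and without them.

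**Figure D1:**
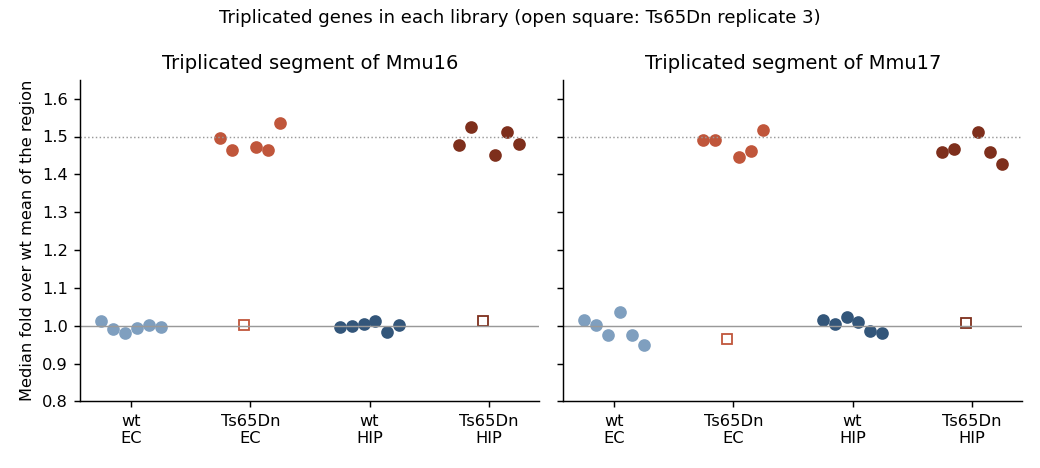
Median fold over the wt mean of triplicated Mmu16 and Mmu17 genes (panels; y axis, linear scale) in each library of the 4 groups (x axis), with open squares for the mouse labelled Ts65Dn replicate 3. The other 5 Ts65Dn mice lie between 1.43 and 1.54, and both libraries of that mouse lie among the wt libraries.

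Levels are CPM, counts scaled to the size of the library, and were compared between genes as CPM per kb of exon. In wt HIP, Rab7 was the most abundant at 75.4 ± 2.29 CPM per kb (SD, n = 6), followed by Rab5c at 53.6 ± 1.86, and both ranges stood clear of every other gene. Among the Rab5 genes, Rab5b reached 18.6 ± 0.39 and Rab5a 15.7 ± 0.539 CPM per kb, so Rab5c was the most abundant of the 3. Eea1 came last at 7.56 ± 0.205 CPM per kb.

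Retromer genes took the middle of the order in wt HIP. Vps26b, the VPS26 subunit that is enriched in brain, was at 30.1 ± 0.943 CPM per kb, above Vps35 at 28.3 ± 0.692 and above the more broadly expressed Vps26a at 24.5 ± 1.21. Snx27 (25.3 ± 0.723), Vps26a and Rabep1 (24.2 ± 1.13) had overlapping ranges. The first 2 places (Rab7, Rab5c) and the last 3 (Rab5b, Rab5a, Eea1) were the same in all 4 groups, with no overlap between neighbours among them. Vps26b and Vps35 came next, in that order, in every group, but their ranges overlapped in wt EC, Ts65Dn EC and Ts65Dn HIP.

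**Figure D2:**
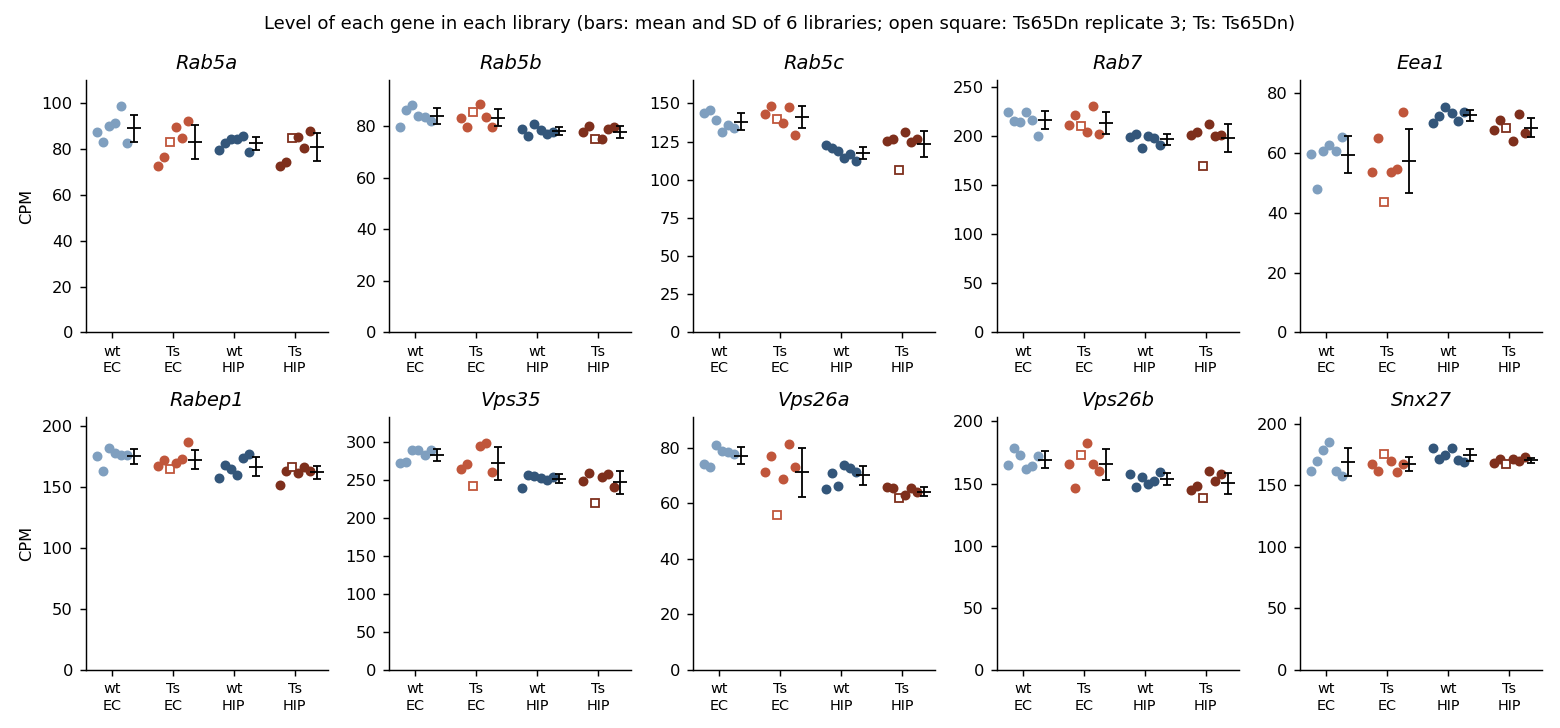
CPM of each of the 10 genes (panels; y axis, CPM) in every library of the 4 groups (x axis), with the group mean and SD. The genotype groups overlap in every panel and in both regions, and Eea1 is the gene whose wt HIP libraries all lie above its wt EC libraries.

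The first comparison asked whether the trisomic mice expressed these genes at another level than wt. No member passed the test in HIP or in EC: 0 of 10 reached an adjusted p under 0.05 in either region with edgeR, where 1.04% of all 17355 genes tested passed in HIP and 2.5% of 17049 in EC. With DESeq2 0 of 10 passed as well, where 3.58% of all genes passed in HIP and 7.43% in EC. In bulk tissue, fewer cells of a type and less RNA per cell cannot be told apart. An unadjusted p under 0.05 was found for 2 of the 10 in HIP, as for 14.8% of all genes, and for 0 in EC, where 19% of all genes had one. The 10 fold changes were small, with a median log2 value of -0.036 in HIP and -0.038 in EC against 0.005 over all genes tested in each region. The value was below zero for 8 of the 10 genes in HIP and for 9 in EC, as for 48.7% of all genes in each region. A correction for each library's trend with GC content and exon length was chosen after seeing the data. After it, the value was below zero for 7 in each region, as for 51% of all genes in HIP and 50.8% in EC. Without the mouse labelled Ts65Dn replicate 3 it was below zero for 8 in each, as for 49.8% and 49.6% of all genes. The groups overlapped for all 10 genes in both regions, where 1.67% of all genes had groups apart in HIP and 2.46% in EC.

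Before the correction for GC content and length, Rab5c was the only one of the 10 genes with a value above zero in both regions. After it, Rabep1 and Vps35 were above zero in both regions, and Rab5c was at -0.047 in EC. In HIP its CPM ran from 112 to 123 in wt, with a median of 118, and from 107 to 131 in Ts65Dn, with a median of 126. The lowest Ts65Dn value was the library labelled replicate 3, and the other 5 lay at 125 to 131, above every wt library. Its log2 fold change was 0.07 (95% interval -0.04 to 0.17, adjusted p = 0.567). Without replicate 3 it was 0.10 (0.03 to 0.18, adjusted p = 0.148), and Rab5c was then the 1 gene of 10 whose HIP groups did not overlap, as in 3.54% of all genes, while 0 of 10 did so in EC, where 4.07% of all genes did. In EC its log2 fold change was 0.02 with replicate 3 (-0.08 to 0.12) and 0.02 without it, with 131 to 146 CPM in wt and 129 to 148 in Ts65Dn.

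Rab5a, the isoform most used to mark early endosomes, had 78.5 to 85.7 CPM in wt HIP (median 83.6) and 72.7 to 88.0 in Ts65Dn HIP (median 82.5). In EC it had 82.6 to 98.8 CPM in wt (median 88.8) and 72.6 to 92.2 in Ts65Dn (median 83.8). The Ts65Dn groups were the wider in both regions, and their lowest libraries came from the mice labelled replicates 1 and 2. The log2 fold change was -0.03 in HIP (-0.14 to 0.08, adjusted p = 0.809) and -0.11 in EC (-0.25 to 0.03, adjusted p = 0.408), and without replicate 3 it was -0.05 and -0.10. For Rab5b it was -0.01 in HIP (-0.08 to 0.06) and -0.02 in EC (-0.11 to 0.07), the tightest intervals of the Rab5 genes. Without replicate 3 the Rab5b values were -0.0022 and -0.03.

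The Rab5 effectors did not pass the test either. Eea1 had 70.0 to 75.2 CPM in wt HIP (median 72.8) and 63.8 to 72.9 in Ts65Dn HIP (median 68.0). Its groups overlapped, with a log2 fold change of -0.09 (-0.17 to -0.003; unadjusted p = 0.0425, adjusted p = 0.317), and also -0.09 without replicate 3. In EC the spread of Eea1 was much wider, from 43.4 to 73.8 CPM in Ts65Dn (median 54.0) and from 47.8 to 65.4 in wt (median 60.7). There the log2 fold change was -0.06 (-0.30 to 0.18) with replicate 3, the lowest Ts65Dn library, and 0.01 (-0.20 to 0.22) without it. Rabep1 had log2 fold changes of -0.05 in HIP (-0.13 to 0.04) and -0.03 in EC (-0.13 to 0.06), and of -0.05 and -0.02 without replicate 3. After the correction for GC content and length they were 0.013 in HIP and 0.039 in EC. Rab7, which marks late endosomes, stood at 0.01 in HIP (-0.10 to 0.11) and -0.03 in EC (-0.13 to 0.07). Its lowest Ts65Dn HIP library was again the one labelled replicate 3, at 170 CPM against 200.1 to 213 in the other 5, and without that mouse the value was 0.05 in HIP (-0.03 to 0.12) and -0.02 in EC.

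Of the retromer genes, Vps26a had the lowest log2 fold change in both regions over all mice, though without replicate 3 the lowest of the 10 genes in EC was Rab5a. In wt HIP its 6 libraries had 65.3, 66.3, 70.8, 71.2, 72.5 and 73.9 CPM. In Ts65Dn HIP they had 62.0, 62.8, 64.0, 65.3, 65.4 and 65.7 CPM. The groups met at their edge, where 3 Ts65Dn libraries lay above the lowest wt library. The log2 fold change was -0.13 (-0.21 to -0.04; unadjusted p = 0.00561, adjusted p = 0.142), and -0.12 without replicate 3 (adjusted p = 0.158), so it did not pass the threshold over all genes. In EC it was also -0.13 (-0.29 to 0.04, adjusted p = 0.398), with 72.9 to 80.8 CPM in wt (median 78.1) and 55.7 to 81.5 in Ts65Dn (median 72.1). The lowest EC value was the library labelled replicate 3, and without it the value was -0.06 (-0.18 to 0.05, adjusted p = 0.560), beside -0.10 for Rab5a.

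For Vps26b, the other subunit that binds VPS35, the log2 fold change was -0.04 in HIP (-0.13 to 0.05) and -0.04 in EC (-0.15 to 0.07), and -0.02 and -0.05 without replicate 3. Vps35, the scaffold of the coat, had -0.03 in HIP (-0.12 to 0.06) and -0.07 in EC (-0.18 to 0.05). Without replicate 3 these were -0.0025 (-0.08 to 0.07) and -0.03 (-0.14 to 0.07). After the correction for GC content and length they were 0.10 in HIP and 0.12 in EC. Snx27, the PDZ sorting nexin, had -0.04 (-0.11 to 0.03) and -0.02 (-0.12 to 0.08), and -0.04 in each region without replicate 3. The bounds of these 10 pairs of intervals allow folds between 0.862 and 1.12 in HIP and between 0.815 and 1.13 in EC. Without replicate 3, again 0 of the 10 genes passed in HIP and 0 in EC, where 1.82% and 2.79% of all genes passed. Of the cell type markers, 1 of 4 microglial genes was lower in Ts65Dn in each region, P2ry12 (log2 fold change -0.27, adjusted p = 0.0422 in HIP and -0.45, adjusted p = 0.0226 in EC). Csf1r, Cx3cr1 and Tmem119 did not pass, and the median of the 4 was 0.01 in HIP and -0.08 in EC. In EC 1 of 4 striatal genes was higher, Drd2 (1.56, adjusted p = 0.0254), with a median of 1.098 over the 4, and no marker of the other lists passed in either region. The part of these markers in the values above was not tested.

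The pathway around these genes was followed in 10 lists that together hold 100 further genes, of which 99 were tested and Ccdc22 was too low. In HIP, 1 of the 99 rose in Ts65Dn and 0 fell, where 1.04% of all genes passed (94 higher and 87 lower). In EC 3 rose and 1 fell, where 2.5% of all genes passed (196 higher and 230 lower). The median log2 fold change of the 99 genes was 0.02 in HIP and -0.02 in EC. Without Ts65Dn replicate 3 the calls were 2 in HIP and 3 in EC, where 1.82% and 2.79% of all genes passed. With any 1 mouse left out they ranged from 0 to 2 in HIP, beside 54 to 318 calls over all genes. In EC they ranged from 0 to 7, beside 90 to 685. In HIP the 1 gene was Vps26c, the VPS26 relative of the retriever complex, which returns integrins to the surface. In EC the genes that rose were Vps26c, Cryzl1, a subunit of the FERRY complex that binds Rab5 and carries mRNA on early endosomes, and Snx32, a sorting nexin close to Snx6. The gene that fell was Vps37a of ESCRT-I, which sorts ubiquitylated cargo into multivesicular endosomes.

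Vps26c and Cryzl1 lie on Mmu16 inside the triplicated segment. Snx32 and Vps37a do not. Snx32 had 42.8 to 51.6 CPM in wt EC (median 47.1) and 48.1 to 65.6 in Ts65Dn EC (median 61.9). Its log2 fold change in EC was 0.33 (0.17 to 0.49, adjusted p = 0.0320), and 0.39 without replicate 3 (adjusted p = 0.00141). In HIP the value was 0.14 (-0.03 to 0.31, adjusted p = 0.463), and the test of the difference between regions gave an adjusted p of 0.9998. Vps37a had 68.1 to 85.2 CPM in wt EC (median 76.8) and 63.1 to 71.8 in Ts65Dn EC (median 65.8), with a log2 fold change of -0.22 (-0.34 to -0.10, adjusted p = 0.0487). Without replicate 3 that value was -0.21 and it lost the call (adjusted p = 0.0692). After the correction for GC content and length Vps37a was at -0.08 (adjusted p = 0.545) and Snx32 at 0.27 (adjusted p = 0.120), and neither passed. Of 18 alternative settings in EC, Snx32 passed in 9 and Vps37a in 5.

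List by list, the genotype counts stood against 1.04% of all genes in HIP and 2.5% in EC. The Rab5 exchange factors (7 genes tested) and the PI3P and PIKfyve complexes (7) had 0 called genes in both regions. So had the tethers CORVET and HOPS with the Rab7 regulators (15) and the WASH complex with Dnajc13 (6). The sorting receptors (7) and the recycling genes (15) also had 0 in both. The Rab5 effectors had 1 called gene of 11 in EC (Cryzl1), the retromer sorting nexins and core 1 of 8 in EC (Snx32), retriever and CCC 1 of 14 in each region (Vps26c), and ESCRT-0 and ESCRT-I 1 of 9 in EC (Vps37a). Median log2 fold changes per list ran from -0.04 (retriever and CCC) to 0.05 (PI3P and PIKfyve complexes) in HIP, and from -0.08 (retromer sorting nexins and core) to 0.03 (PI3P and PIKfyve complexes) in EC.

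Endosomal genes that the minichromosome carries were read in the same libraries, with those of Ts65Dn replicate 3, at wt dosage, included. These are Vps26c, Cryzl1, App, Itsn1 (an endocytic scaffold) and Synj1 (synaptojanin, which turns over PI(4,5)P2 on clathrin-coated vesicles) on Mmu16, and Synj2 and Snx9, a membrane-bending sorting nexin, on Mmu17. In HIP 5 of these 7 rose and in EC all 7 did. App rose from a mean of 2040 ± 39.4 CPM in wt HIP to 3023 ± 526 in Ts65Dn HIP (SD, n = 6), with a log2 fold change of 0.56 (0.34 to 0.79, adjusted p = 0.0267). Its lowest Ts65Dn HIP library, labelled replicate 3, had 1964 CPM and was below the lowest wt library, at 2001.

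The other log2 fold changes in HIP were 0.64 for Synj2 (adjusted p = 0.0105), 0.59 for Synj1 (0.0335), 0.53 for Itsn1 (0.00853) and 0.49 for Vps26c (0.0275). Snx9, at 0.47 (adjusted p = 0.0502), and Cryzl1, at 0.43 (adjusted p = 0.0546), did not pass in HIP. In EC the 7 values ran from 0.41 for Cryzl1 to 0.56 for Itsn1, the latter with an adjusted p of 0.00519. Without replicate 3, all 7 passed in both regions, with folds from 1.39 for Cryzl1 in EC to 1.66 for Synj2 in HIP. Of the 18 alternative settings, Synj2 passed in all 18 in HIP and 17 in EC and Itsn1 in 17 and 18, whereas App passed in 9 and 13, Vps26c in 8 and 14, Synj1 in 5 and 10, Cryzl1 in 4 and 15 and Snx9 in 3 and 8. The 10 Rab5 and retromer genes had folds of 0.914 to 1.05 in HIP and 0.917 to 1.01 in EC over all mice.

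**Figure D3:**
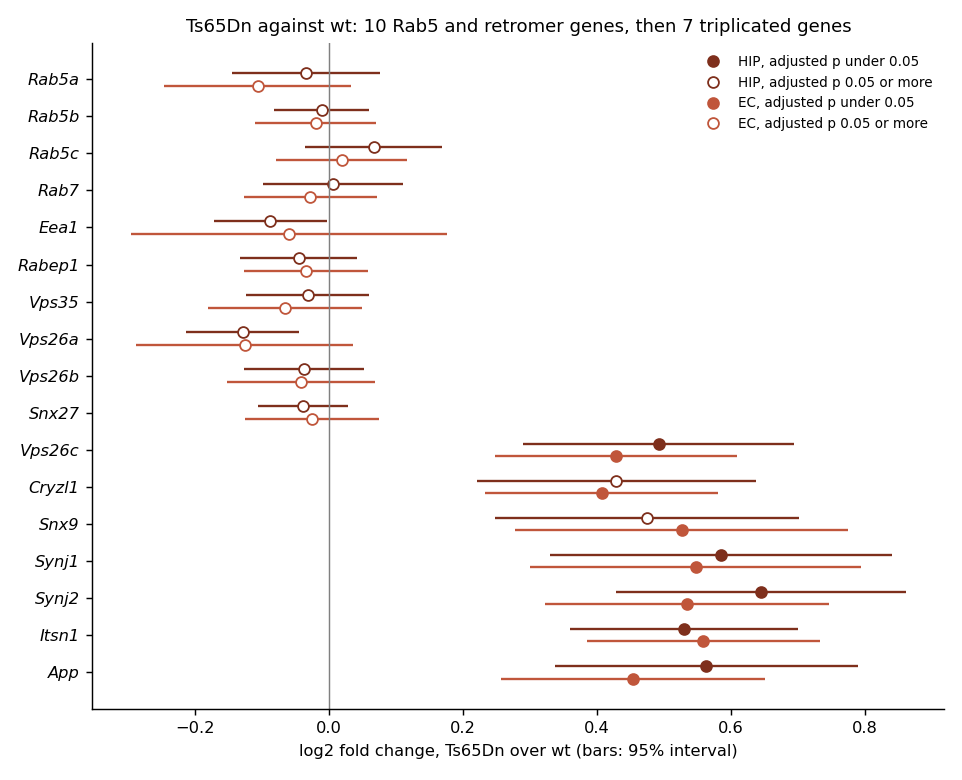
Log2 fold change of Ts65Dn over wt with its 95% interval (x axis) for the 10 Rab5 and retromer genes and 7 triplicated endosomal genes (y axis), with all 6 mice per genotype, in HIP and EC. Filled points passed an adjusted p of 0.05; none of the 10 did, with Vps26a farthest below zero in HIP at -0.13, while the triplicated genes lie between 0.41 and 0.64.

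The second comparison set HIP against EC within each mouse. In wt, 7 of the 10 genes were lower in HIP, where 30.3% of all genes tested were lower, and 1 was higher, where 31% were higher; 8 of 10 passed in all, against 61.3% of 17196 genes. The median log2 difference of the 10 genes, HIP over EC, was -0.12, and that of all genes was 0.002. Each of the 7 was lower in HIP in 6 of 6 mice, as were 27.1% of all genes, and Eea1 was higher in 6 of 6 mice, as were 28.6%.

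Before any correction for GC content and length, Rab5c had the widest difference among those lower in HIP. It had 131 to 146 CPM in wt EC (median 137) and 112 to 123 in wt HIP (median 118), with no overlap. The log2 difference was -0.24 (-0.30 to -0.17, adjusted p = 5.8e-05). Rab5a, with 82.6 to 98.8 CPM in EC and 78.5 to 85.7 in HIP, differed by -0.11 (-0.19 to -0.03, adjusted p = 0.0194), and its ranges overlapped although each mouse was lower in HIP. Rab5b, with 79.5 to 88.2 CPM in EC and 76.2 to 80.9 in HIP, also differed by -0.11 (-0.18 to -0.03, adjusted p = 0.0188). Rab5a and Rab5b did not pass in DESeq2, with adjusted p-values of 0.056 and 0.058, nor without a filter on low counts, with 0.062 and 0.070, and Rab5a did not pass without the mouse as a block (0.057). After a correction for GC content and length Rab5a differed by -0.20.

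Eea1 went the other way from the Rab5 genes whose product it binds. Its CPM was 47.8, 59.6, 60.5, 60.8, 62.5 and 65.4 in wt EC and 70.0, 70.6, 72.2, 73.3, 73.7 and 75.2 in wt HIP, with no overlap. The log2 difference was 0.29 (0.17 to 0.41, adjusted p = 0.000874), a fold of 1.22. After the same correction the difference was 0.17 (adjusted p = 0.00510). Rabep1, the other effector, had 163 to 181 CPM in EC and 157 to 176 in HIP. It was lower in HIP in 4 of 6 mice and did not pass, at -0.08 (-0.16 to 0.01, adjusted p = 0.110), except after that correction (-0.18, adjusted p = 0.000981). Rab7 was lower in HIP, with 200.1 to 225 CPM in EC and 188 to 203 in HIP and a log2 difference of -0.14 (-0.21 to -0.07, adjusted p = 0.00280).

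Vps35 and both VPS26 genes were lower in HIP, while Vps29, which encodes the remaining subunit of the retromer trimer, was higher (0.22, adjusted p = 0.000531). Vps35 had 273 to 290 CPM in wt EC (median 286) and 240.1 to 257 in wt HIP (median 254), without overlap. Its log2 difference was -0.17 (-0.24 to -0.11, adjusted p = 0.000579), and -0.31 after the correction for GC content and length. The same correction brought Vps29 to 0.11 (adjusted p = 0.0246). Vps26a and Vps26b differed by nearly the same amount, -0.14 for each, with intervals of -0.23 to -0.06 (adjusted p = 0.00693) and -0.22 to -0.06 (adjusted p = 0.00535). Vps26b ran from 161 to 179 CPM in EC and from 147 to 160 in HIP, and did not overlap. Snx27, the cargo adaptor that binds the trimer, was at 157 to 185 CPM in EC and 169 to 181 in HIP, with a log2 difference of 0.04 (-0.04 to 0.13, adjusted p = 0.309). It was higher in HIP in 4 of 6 mice.

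**Figure D4:**
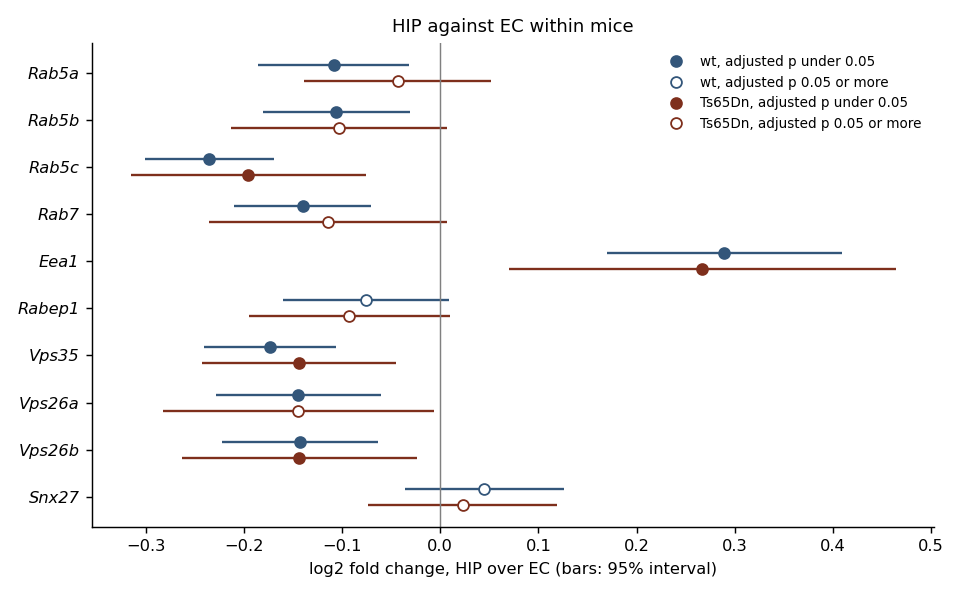
Log2 difference of HIP over EC within mouse with its 95% interval (x axis) for each of the 10 genes (y axis) in wt and Ts65Dn mice. Rab5c lies lowest in wt at -0.24, Eea1 is the only gene above 0.1 at 0.29, and the wt and Ts65Dn intervals of each gene overlap.

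In Ts65Dn mice the differences had the same signs for all 10 genes, and 4 of 10 passed, against 52.3% of 17314 genes. Lower in HIP were Rab5c at -0.20 (-0.32 to -0.08, adjusted p = 0.0116), Vps35 at -0.14 (-0.24 to -0.05, adjusted p = 0.0198) and Vps26b at -0.14 (-0.26 to -0.02, adjusted p = 0.0454), where 25.7% of all genes were lower. Higher was Eea1 at 0.27 (0.07 to 0.46, adjusted p = 0.0277), where 26.6% were higher. Rab5c and Vps35 were lower in 6 of 6 Ts65Dn mice, as were 23.1% of all genes. No member was higher in HIP in every Ts65Dn mouse, as were 23.5% of all genes, and Eea1 was higher in 5 of 6.

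The other Ts65Dn values were -0.14 for Vps26a (adjusted p = 0.0749), -0.11 for Rab7, -0.10 for Rab5b, -0.09 for Rabep1, -0.04 for Rab5a and 0.02 for Snx27. With 1 Ts65Dn mouse left out at a time, 1 to 4 of 10 passed, against 43.7% to 50.8% of all genes. Rab5c passed in all 6 of these fits, Vps35 in 3 and Eea1 and Vps26b in 2 each. Without the mouse labelled replicate 3, 3 of 10 passed, against 47.9% of 17344 genes. Rab5c and Vps35 were among them and Vps26a joined at -0.20 (adjusted p = 0.00742), while Eea1 at 0.19 (adjusted p = 0.0658) and Vps26b at -0.11 (adjusted p = 0.108) did not pass. After the correction for GC content and length 8 of 10 passed in Ts65Dn, against 53.4% of all genes, though not Eea1 (0.14, adjusted p = 0.0843). Without the mouse as a block 2 of 10 did, against 48.2%, and Eea1 (adjusted p = 0.0519) and Vps35 (0.0575) lost the call. The call of Vps26b was lost with DESeq2 (adjusted p = 0.0502), without a filter (0.0605) and with a filter of at least 10 counts in every library (0.0507).

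The difference between regions was tested against genotype directly over all 24 libraries. No member passed (0 of 10, adjusted p = 0.9998 for each), where 0% of 18109 genes passed. By edgeR, 742 genes and 0 members had an unadjusted p under 0.05, and DESeq2 called 0 genes. The largest member value was Rab5a, whose log2 difference between HIP and EC was 0.07 higher in Ts65Dn than in wt (-0.04 to 0.17, unadjusted p = 0.197). For Vps26a, Vps26b and Rab5b the value was within 0.01 of zero, with intervals no wider than -0.15 to 0.16.

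The 2 regions also differed in the markers of their cell types. Oligodendrocyte markers were higher in wt HIP for 4 of 4 genes, with a summed level of 7726 CPM in HIP and 1912 in EC (medians), and Mbp was the most abundant. Neuronal markers were lower in HIP for 3 of 4 genes, with summed medians of 5957 CPM in HIP and 7764 in EC, led by Snap25. Choroid plexus markers were higher in HIP for 4 of 4 genes and varied widely between mice, from 65.4 to 4714 CPM in wt HIP and from 24.2 to 4993 in Ts65Dn HIP, with Ttr the most abundant. Their medians in EC were 8.97 CPM in wt and 7.47 in Ts65Dn.

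Of the remaining marker lists in wt, microglia were lower in HIP for 4 of 4 genes (234 against 281 CPM, led by Csf1r), endothelium for 3 of 3 (136 against 183 CPM, Flt1) and blood for 3 of 3 (89.2 against 170.3 CPM, Hbb-bs). Astrocyte markers had 2 higher and 2 lower (1446 against 1207 CPM, Slc1a3), interneurons 1 of 4 lower (799 against 839 CPM, Gad1), meningeal fibroblasts 0 of 3 called (45.9 CPM in each region, Dcn) and striatum 1 higher and 2 lower of 4 (56.1 against 76.1 CPM, Ppp1r1b). The labelled tissue was visible in its own genes: markers of hippocampal fields were higher in HIP for 4 of 5 genes (597 against 237 CPM), with Wfs1 lower, and markers of cortical layers were lower for 4 of 5 (153 against 556 CPM, Lamp5), with Fezf2 not called. No marker of any list was at 0 in any library. The part of these cell types in the regional differences of the Rab5 and retromer genes was not tested.

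Of the 99 pathway genes tested in wt, 26 were higher in HIP, where 31% of all genes were, 40 were lower, where 30.3% were, and 33 did not pass, with a median log2 difference of -0.03. In Ts65Dn 24 were higher and 25 lower, near the 26.6% and 25.7% of all genes. The counts of each list that follow are for wt and stand beside the same wt shares. Among the exchange factors that load Rab5 with GTP, 3 of 7 were higher and 2 lower: Rin1 at 0.46 (adjusted p = 4.2e-05) and Rin2 at 0.34 were higher, and Rabgef1, which encodes the rabaptin-5 partner Rabex-5, was lower at -0.44 (adjusted p = 2.0e-05), as was Gapvd1 at -0.09. Among 11 Rab5 effectors, 4 were higher, led by Appl2 at 0.74 (adjusted p = 1.1e-07) and Rabep2 at 0.47, and 5 were lower, led by Gatd1 at -0.27 and Tbck at -0.17.

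The lipid kinase complexes that make and modify PI3P, which EEA1 binds, had 1 gene of 7 higher (Fig4, 0.14) and 5 lower, with Vac14 at -0.24 and Pik3r4 at -0.18. Of the 15 genes of CORVET, HOPS and the Rab7 regulators, 3 were higher, with the Rab7 effector Rilp at 0.94 (adjusted p = 0.00178) and the Rab7 GAP Tbc1d15 at 0.39, and 5 were lower. The core subunits Vps18, at -0.49 (adjusted p = 1.6e-06), and Vps33a, at -0.47, were the lowest of these. In the list of retromer nexins and the remaining core subunit, 4 of 8 genes were higher, with Snx1 at 0.27 and the trimer subunit Vps29 at 0.22, and Snx3 was lower at -0.16. Vps29 was higher in HIP in 6 of 6 mice, with a log2 difference of 0.11 to 0.25 over 12 alternative settings.

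The WASH complex nucleates actin on retromer domains, and its list also held Dnajc13. Of these 6 genes 3 were higher, with Washc2 at 0.47 (adjusted p = 3.5e-06) and Washc4 at 0.33, and Washc5 was lower at -0.13. Retriever and CCC had 3 of 14 higher (Ccdc93 0.32, Commd4 0.25) and 4 lower (Snx17 -0.17, Commd9 -0.17). The sorting receptors, which are retromer cargo, had 0 of 7 higher and 4 lower. Sorcs1 was the lowest pathway gene at -1.64 (-1.81 to -1.46, adjusted p = 8.0e-08), a fold of 0.322, followed among these receptors by Sorcs3 at -0.63. Recycling genes had 4 of 15 higher, with the ATPase Ehd1 at 1.05 (0.91 to 1.20, adjusted p = 4.1e-07), a fold of 2.08, and Rab11fip1 at 0.60, and 7 lower, with Rab11fip5 at -0.60 and Rab11fip4 at -0.36. ESCRT-0 and ESCRT-I had 1 of 9 higher (Stam2, 0.13) and 6 lower (Vps28 -0.30, Hgs -0.28). Under 12 alternative settings the named genes passed in all 12, except Tbck (9), Washc5 (8), Commd9 (6), Stam2 (6) and Gapvd1 (5). The correction for GC content and length brought Stam2 to 0.02 (adjusted p = 0.642) and Commd9 to -0.11 (adjusted p = 0.0954), neither of which then passed, and Washc4 to 0.21, whereas Tbck (-0.29), Gapvd1 (-0.20) and Washc5 (-0.20) lay farther from zero.

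**Figure D5:**
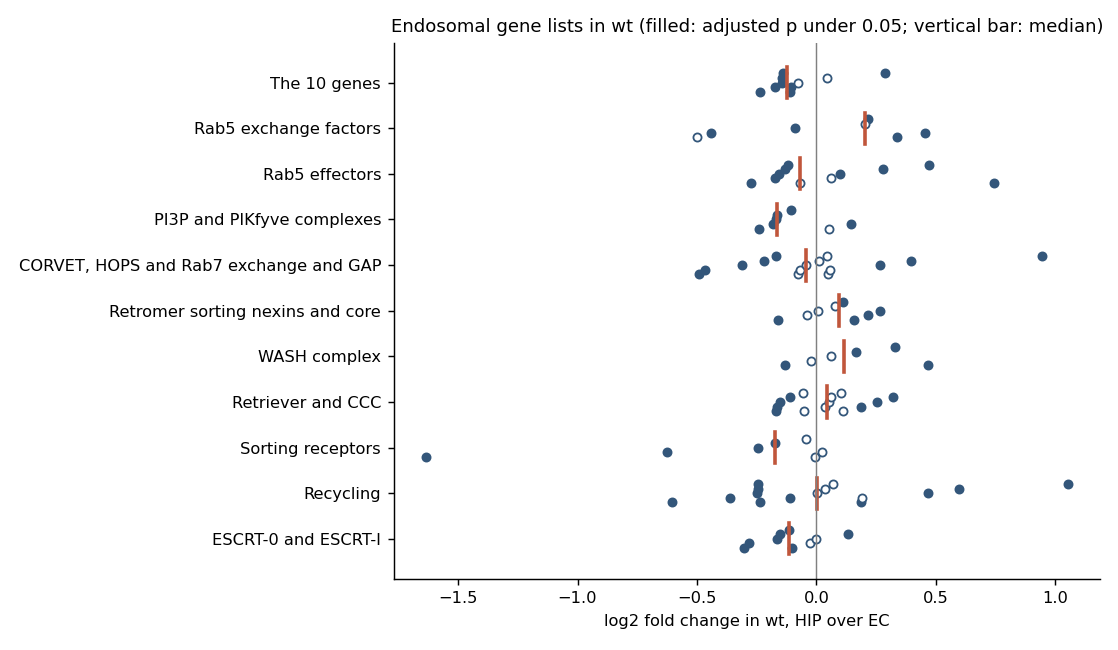
Log2 difference of HIP over EC in wt mice (x axis) for the 10 Rab5 and retromer genes and every tested gene of each pathway list (y axis), 1 point per gene, filled where the adjusted p was under 0.05 and with a vertical bar at each median. Sorcs1 at -1.64 and Ehd1 at 1.05 are the extremes, and the 10 Rab5 and retromer genes lie between -0.24 and 0.29.

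Promoters of 4 genes that differed between regions in wt are shown, Rab5a, Rab5c and Vps26a, which were lower in HIP, and Eea1, which was higher. They were picked to show a marked motif, after the matches were known. Rab5b, Rab7 and Vps26b also had windows, which are not shown. Each window of 300 bases runs from 250 before to 50 after the start site, from RefSeq on GRCm38.p6, at chr17:53478984-53479283 (plus strand) for Rab5a, chr10:62486756-62487055 (minus strand) for Vps26a, chr11:100738166-100738465 (minus strand) for Rab5c and chr10:95940413-95940712 (plus strand) for Eea1. Capitals mark CACGTG, the same on both strands, in Rab5a and Vps26a and CCAAT, read here on the other strand as ATTGG, in Rab5c and Eea1.
Rab5a: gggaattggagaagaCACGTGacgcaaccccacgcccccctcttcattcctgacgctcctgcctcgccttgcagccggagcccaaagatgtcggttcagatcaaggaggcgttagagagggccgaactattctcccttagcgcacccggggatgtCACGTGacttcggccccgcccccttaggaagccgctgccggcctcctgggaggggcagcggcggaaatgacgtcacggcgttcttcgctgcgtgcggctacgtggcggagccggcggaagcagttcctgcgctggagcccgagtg
Vps26a: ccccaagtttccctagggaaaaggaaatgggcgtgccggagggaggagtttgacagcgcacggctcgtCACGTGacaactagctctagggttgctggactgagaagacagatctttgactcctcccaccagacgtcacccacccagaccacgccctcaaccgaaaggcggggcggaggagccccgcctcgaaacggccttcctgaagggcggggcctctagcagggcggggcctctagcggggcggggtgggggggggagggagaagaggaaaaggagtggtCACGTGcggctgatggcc
Rab5c: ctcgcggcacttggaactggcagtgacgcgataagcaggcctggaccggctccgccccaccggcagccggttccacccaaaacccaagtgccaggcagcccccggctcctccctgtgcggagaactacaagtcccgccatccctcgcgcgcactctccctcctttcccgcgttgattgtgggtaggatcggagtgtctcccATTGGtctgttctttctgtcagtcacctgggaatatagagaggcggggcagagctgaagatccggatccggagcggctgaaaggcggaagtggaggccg
Eea1: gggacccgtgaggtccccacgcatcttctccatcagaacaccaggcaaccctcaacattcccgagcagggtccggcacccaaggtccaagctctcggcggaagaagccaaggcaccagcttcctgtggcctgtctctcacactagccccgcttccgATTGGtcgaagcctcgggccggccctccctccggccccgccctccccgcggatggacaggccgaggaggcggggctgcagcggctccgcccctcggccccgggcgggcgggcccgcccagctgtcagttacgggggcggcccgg

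Promoter windows were found for 7 of the 10 genes, 9 windows in all. Rabep1, Vps35 and Snx27 had no entry. Searched on both strands, CACGTG occurred in 3 of the 9 windows, those of Rab5a and Vps26a, with 2 matches in each window shown, and in 7.15% of 32851 promoter windows. CCAAT occurred in 5 of the 9 (of 5 genes) and in 37.4% of all windows, GGGCGG in 8 of 9 (all genes but Vps26b) and in 35.7%, TGACGTCA in 1 of 9 (Rab5a) and in 1.79%, and TATAAA in 1 of 9 (Rab7) and in 13.6%. The windows of Vps26a overlap. A match describes these letters in the window and not a bound site.

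Mouse by mouse, the genes also varied with one another. After the mean of each group was removed, the log2 CPM of Rab5c and Rab7 had a Pearson r of 0.78 over the 24 libraries, the highest of 45 pairs. Next came Eea1 with Rabep1 at 0.64, Vps35 with Vps26a at 0.64, Rab5b with Vps26b at 0.62, Eea1 with Vps26a at 0.60 and Rab5b with Snx27 at 0.51. The lowest were Eea1 with Vps26b at -0.52 and Rab5c with Rabep1 at -0.47. The lowest pairs were at -0.55 and -0.54 without the mouse labelled Ts65Dn replicate 3, and Rab5c with Eea1, at -0.33 over all libraries, was then lowest at -0.59. Several of the values above rested on single mice. Rab5c and Rab7 both had their lowest Ts65Dn HIP value in replicate 3. Without that mouse their r was 0.57 over 22 libraries, Vps35 with Vps26a was at 0.41 and Eea1 with Vps26a at 0.29. Eea1 with Rabep1 was then highest at 0.62, and it was at 0.50 over 20 libraries once wt replicate 2 was left out as well. Rab5b with Vps26b stayed at 0.56 and 0.51. These values are descriptions, since both libraries of a mouse share the animal and all share depth and base composition.

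Among 11558 other genes with a mean of at least 5 CPM, the patterns most like Rab5a were those of Tmem181a (r = 0.82), Tbp (0.81) and Exoc8 (0.79). Those most like Rab7 were Calm2 (0.87), Tmed9 (0.82) and S100b (0.80), and those most like Vps35 were Xpot (0.89), Pls3 (0.89) and Nalcn (0.87). Tmem181a lies inside the triplicated Mmu17 segment, and the other 8 lie outside both segments. Tbp, like Rab5a and Tmem181a, is on chromosome 17, and Exoc8 is on chromosome 8. Without the mouse labelled Ts65Dn replicate 3, over 22 libraries, the values were 0.82, 0.82 and 0.81 for the genes named for Rab5a, 0.75, 0.73 and 0.69 for those of Rab7 and 0.76, 0.78 and 0.78 for those of Vps35. The 3 genes most like Rab5a were then again these 3, whereas none of the named genes was among the 3 most like Rab7 or Vps35. The 10 genes themselves were left out of the search.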

How the data were processed

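RNA was extracted from HIP and EC and made into stranded libraries, with a TruSeq mRNA (poly-T) kit per the labels and a TruSeq total RNA kit with rRNA removal per the methods. The methods also describe the extracted molecules as polyA RNA. Which kit was used is not settled here. The authors sequenced single-end reads of 50 bases, aligned them with Hisat2 to GRCm38 (Ensembl 99) and deposited raw HTSeq-count counts for 55385 genes. The authors' tables of fold changes and p-values from DESeq2 and FCROS were not used.

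Groups came from the labels. Counts were tested with edgeR 4.0.16 (R 4.3.3; filterByExpr, TMM, quasi-likelihood, Benjamini-Hochberg over all genes tested, threshold 0.05), genotype within region and region within genotype with the mouse as block, and the genotype by region interaction over 24 libraries with a term per mouse. P-values for genotype rest on the spread between these mice. Those for region and for the interaction rest on how far the difference of HIP and EC varies between mice. The labels give the mouse number, and HIP and EC of a mouse deviated together (r = 0.211 to 0.607 in Ts65Dn, 0.328 to 0.590 in wt). Intervals are 95%. CPM used TMM over 24 libraries, and log2 CPM a prior count of 2. Exon lengths came from GENCODE M21, matching 99.6% of IDs. On simulated data with 200 genes changed 1.5 times, the genotype fits recovered 68.5% of them in HIP and 71.5% in EC. The region fits recovered 86% in wt and 87% in Ts65Dn, and the interaction 68.5%. False calls numbered 3 to 19 per fit.

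The 10 genes, the 10 pathway lists (genes of Rab5 exchange and effectors, PI3P, tethers, retromer, WASH, retriever, receptors, recycling and ESCRT), the cell type markers and the tests were chosen with earlier results of these data known. Named were all 10 genes, pathway genes called by genotype, the 2 called genes per list and direction that differed most between regions in wt, 7 triplicated genes, and the 3 genes most like Rab5a, Rab7 and Vps35. Alternatives were DESeq2 1.42.0, its size factors, no filter, at least 10 counts in every library, the replicate block, each mouse left out and a GC content and length correction.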

Additional observations from a re-analysis of the deposited data

Results flagged for a closer look

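In 7 of 40 groups of 6 libraries (10 genes in 4 groups), 1 library lay apart from the others by Dixon's criterion, which chance meets in about 1 in 20 groups. Rab5c in Ts65Dn HIP was 107 CPM in replicate 3 and 125 to 131 in the others. Rab7 in Ts65Dn HIP was 170 CPM in replicate 3 and 200.1 to 213 in the others. Both values came from the library whose dosage of triplicated genes went against its label.

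In wt EC, both such values came from replicate 2, Eea1 at 47.8 CPM (the others 59.6 to 65.4) and Rabep1 at 163 CPM (the others 175 to 181). Rabep1 was also high in Ts65Dn EC replicate 6, at 186 CPM against 164 to 172, and low in Ts65Dn HIP replicate 1, at 151 CPM against 161 to 166. Vps35 in wt HIP was 240.1 CPM in replicate 1 and 251 to 257 in the others.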

How the results depend on the processing

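Under every alternative run, 0 of the 10 genes passed for genotype or for the interaction. Counts of other genes called by genotype changed as follows, and the cause was not tested. For genotype in HIP, DESeq2 called 589 genes, the replicate block 29 and the GC content and length correction, chosen after seeing the data, 79, against 181. Pathway genes called were 4 with DESeq2, 2 without a filter, 2 with at least 10 counts and 0 with the correction, against 1. In EC the calls were 1098 with DESeq2, 275 without a filter, 36 with the replicate block and 131 with the correction, against 426, and pathway calls were 8 with DESeq2, 0 with the block and 1 with the correction, against 4. The correction turned the sign of Rab7 (-0.0037), Rabep1 (0.013) and Vps35 (0.10) in HIP, of Rab5c (-0.047), Eea1 (0.029), Rabep1 (0.039) and Vps35 (0.12) in EC, and of Snx27 between regions in wt (-0.046) and Ts65Dn (-0.065). Between regions in Ts65Dn, 2 members passed without the replicate block and 8 with the correction. The number of all genes called between regions stayed within 1.5 times under each of these settings. For the interaction, 37 genes passed without a filter. Its signs turned without a filter for Rab5b (-0.0067), Vps26a (-0.0092) and Vps26b (-0.0099), without the replicate block for Vps26a (-0.0080) and Vps26b (-0.0013), and with the correction for Vps35 (-0.0076) and Vps26a (-0.0088).

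With 1 mouse left out at a time, genotype calls in HIP were fewest (54 genes) when Ts65Dn replicate 6 was dropped and most (318) when Ts65Dn replicate 3 was, and in EC they were fewest (90) and most (685) when Ts65Dn replicates 1 and 6 were dropped in turn. Pathway calls spanned 0 to 2 and 0 to 7. Log2 fold changes crossed zero for Rab5b (-0.017 to 0.0011) and Rab7 (-0.013 to 0.046) in HIP and for Eea1 (-0.15 to 0.0097) and Snx27 (-0.045 to 0.0046) in EC. Members called between regions ranged from 6 (without wt replicate 5) to 8 in wt, where 56.2% to 59.2% of all genes passed, and from 1 (without Ts65Dn replicate 1, 4 or 5) to 4 in Ts65Dn, where 43.7% to 50.8% did. The interaction ranged from -0.097 to 0.063 for Eea1, -0.019 to 0.042 for Rab5b, -0.037 to 0.0068 for Rabep1, -0.039 to 0.00058 for Snx27, -0.057 to 0.051 for Vps26a and -0.032 to 0.037 for Vps26b. Samples of wt and Ts65Dn with the same number were not paired (r = -0.260 to 0.324, 1 of 6 best with its own number in each region). Each of the 10 genes had at least 1200 counts in every library.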
